A study of Rattus norvegicus with 6 samples.

Results

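The genes described are those of the machinery that fuses transmitter vesicles with the nerve terminal membrane: the synaptobrevins or Vamp genes, the syntaxins and their binding proteins, the Snap family, the synaptotagmins, complexins, synapsins and Sv2 proteins, and the Rab3 and Rims genes that hold vesicles at the release site. They were chosen by gene symbol, and 64 of the 15154 genes named on the array met that choice. Only 18004 of 30367 probes could be given a symbol, so the 64 need not be the complete families. Syp, also within that choice, had no probe matched to its symbol. The 64 genes were carried by 71 probes, and for the 7 genes with a second probe the one with the higher mean intensity was used. Snap91, which encodes the clathrin assembly protein AP180 and is no SNARE, entered through its symbol and is described apart.

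RNA labelled as hippocampus of male Wistar rats was read on 6 rat arrays of 1 colour (Cy3), 1 per animal. The 3 orchidectomized animals had their testes removed at 2 months of age and were killed 2 weeks later. The 3 sham-operated animals had the operation without removal of the testes at the same age and were killed after the same interval. Rats of both groups were kept under 12 h of light, ate and drank freely and were anesthetized with ketamine and medetomidine, and the labels call the samples biological replicates. Each value is a log2 intensity from which the array's own 75th percentile was subtracted, so 0 is the brightness of that percentile and each unit is a doubling. Differences are orchidectomized minus sham on this log2 scale, and a probe's brightness was not set against that of another probe.

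Release of transmitter depends on SNARE proteins, which zip together into a bundle that pulls a vesicle onto the plasma membrane. Synaptobrevin on the vesicle pairs with syntaxin and SNAP-25 on the target membrane, Munc18 and complexin guide the assembly, and synaptotagmin lets calcium trigger fusion. Close relatives of the same proteins serve fusion steps in every cell type, at endosomes, the Golgi apparatus and the surface of secretory cells, so the families hold both neuronal and widely expressed genes. In the hippocampus the neuronal members are known from the synapses of the principal cells and interneurons.

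The array labelled sham 2 stood apart and is given with and without throughout. Its correlation with the other 5 arrays was between 0.803 and 0.813, against 0.987 to 0.996 among those 5. These were taken over the probes well above background on every array of at least 1 group. Of 14 marker genes of the choroid plexus, the epithelium that secretes cerebrospinal fluid, 13 were more than 1 log2 unit brighter there, with a list mean of 4.18 on sham 2 against -5.10 to -3.69 on the other arrays. All 12 markers of glutamatergic neurons were more than 1 log2 unit dimmer on it, with a list mean of -6.23 against 0.00 to 0.38, and 5 of the 12 were not well above background there. The 9 GABAergic, 8 astrocyte and 8 oligodendrocyte markers were also all dimmer by that margin, with list means of -3.67, -0.60 and -1.72 on sham 2 against lowest values of 1.52, 3.39 and 1.73 elsewhere. So were all 7 pan-neuronal markers (median -7.36), but only 4 of 7 microglial ones (median -1.19). Brighter by more than 1 unit were 3 of 4 ependymal markers (median 5.36), 4 of 6 of meninges and fibroblasts (median 1.32) and 1 of 3 of blood (median 0.60). The choroid plexus, neuronal, astrocyte and oligodendrocyte markers go against the tissue label of sham 2. Whether that array holds hippocampal RNA cannot be settled here, which bears on every difference taken over 6 arrays. The part that cell makeup plays in the values of the release genes on this array was not tested. In bulk tissue fewer cells of a type and less RNA per cell cannot be told apart.

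Promoter windows are shown for 4 members that parted on the sham 2 array, a pair of neuronal genes that were dimmer there and a pair of widely expressed relatives that were brighter. Each window runs from 250 bases before the annotated start to 50 bases after it, on the strand of the gene, from RefSeq on assembly GRCr8. Capitals mark TGACG, the core of cyclic AMP response elements, and the GC box GGGCGG, each searched on both strands, so that CGTCA and CCGCCC count as well. Syn1 lies at chrX:3725495-3725794 on the + strand, Vamp2 at chr10:54292539-54292838 on the + strand, Vamp8 at chr4:106005593-106005892 on the - strand and Snap23 at chr3:127967636-127967935 on the + strand.
Syn1: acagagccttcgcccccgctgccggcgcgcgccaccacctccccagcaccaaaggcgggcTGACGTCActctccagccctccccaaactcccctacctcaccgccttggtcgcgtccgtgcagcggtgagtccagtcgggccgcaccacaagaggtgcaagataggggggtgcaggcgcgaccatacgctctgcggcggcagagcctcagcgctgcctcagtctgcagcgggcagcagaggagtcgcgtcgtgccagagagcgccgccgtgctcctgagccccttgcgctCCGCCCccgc
Vamp2: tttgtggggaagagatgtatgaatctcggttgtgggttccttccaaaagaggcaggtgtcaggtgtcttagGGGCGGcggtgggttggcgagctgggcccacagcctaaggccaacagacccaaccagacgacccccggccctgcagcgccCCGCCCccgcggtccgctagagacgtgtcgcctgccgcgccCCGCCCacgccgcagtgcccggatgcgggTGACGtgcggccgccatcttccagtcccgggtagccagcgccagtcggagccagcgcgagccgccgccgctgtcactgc
Vamp8: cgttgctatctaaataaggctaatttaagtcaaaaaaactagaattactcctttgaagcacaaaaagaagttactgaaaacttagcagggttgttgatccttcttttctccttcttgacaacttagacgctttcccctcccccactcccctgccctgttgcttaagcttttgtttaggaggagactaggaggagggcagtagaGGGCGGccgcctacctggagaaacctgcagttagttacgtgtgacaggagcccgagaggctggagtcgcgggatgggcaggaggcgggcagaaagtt
Snap23: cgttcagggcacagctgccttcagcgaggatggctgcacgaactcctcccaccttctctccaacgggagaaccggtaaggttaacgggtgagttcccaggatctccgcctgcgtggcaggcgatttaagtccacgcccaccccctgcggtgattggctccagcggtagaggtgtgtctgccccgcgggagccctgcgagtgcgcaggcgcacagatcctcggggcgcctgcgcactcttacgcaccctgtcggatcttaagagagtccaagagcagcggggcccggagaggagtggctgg

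Of the 64 members, 49 had a window in that table. The GC box was present in 34 of the 49 (69.4%), against 33.1% of all 33469 promoter windows of the same length and 41.8% of those of protein-coding genes. The TGACG core was present in 15 (30.6%), against 21.2% of all windows and 23.5% of protein-coding ones. In the Syn1 window the core stands on both strands with its letters overlapping, which gives the full palindrome in capitals. Among the 13 members with a window that were dimmer by more than 4 log2 units on sham 2, 9 held the GC box (69.2%) and 5 the TGACG core (38.5%), and among the 23 not dimmer by more than 1 unit 15 held the GC box (65.2%) and 6 the TGACG core (26.1%). AGAACA, a core of androgen response elements, was found in 6 members (12.2%), against 20.7% of all windows and 18.15% of protein-coding ones. It was present in 1 of those 13 dimmer members (7.69%) and in 2 of those 23 not dimmer (8.70%). These are letter matches in a short window and say nothing of binding.

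Of the 64 members, 62 were well above background on every array of at least 1 group and were tested. Cplx4, a complexin known from the retina, was well above background on sham 1 alone, and the synaptotagmin Syt15 was so on 0 arrays. On the sham 2 array, 35 of the 62 were more than 1 log2 unit dimmer than the median of the other 5 arrays (56.5%, against 24% of all probes tested). A further 10 members were brighter by more than 1 unit (16.1%, against 18.8%). The median member stood at -1.84 on this measure, or -1.66 with probes that were not well above background taken at their bound, and the median of all probes was 0.01. Members dimmer by more than 4 units numbered 17 (27.4%, against 5.99% of all probes). In 59 of 62 members the value of sham 2 lay outside the range of the other 5 arrays, 43 below and 16 above it. Those 5 arrays kept within a median range of 0.41 of each other for the members, against 0.47 for all probes. With 1 array there is no test of these differences.

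**Figure D1:**
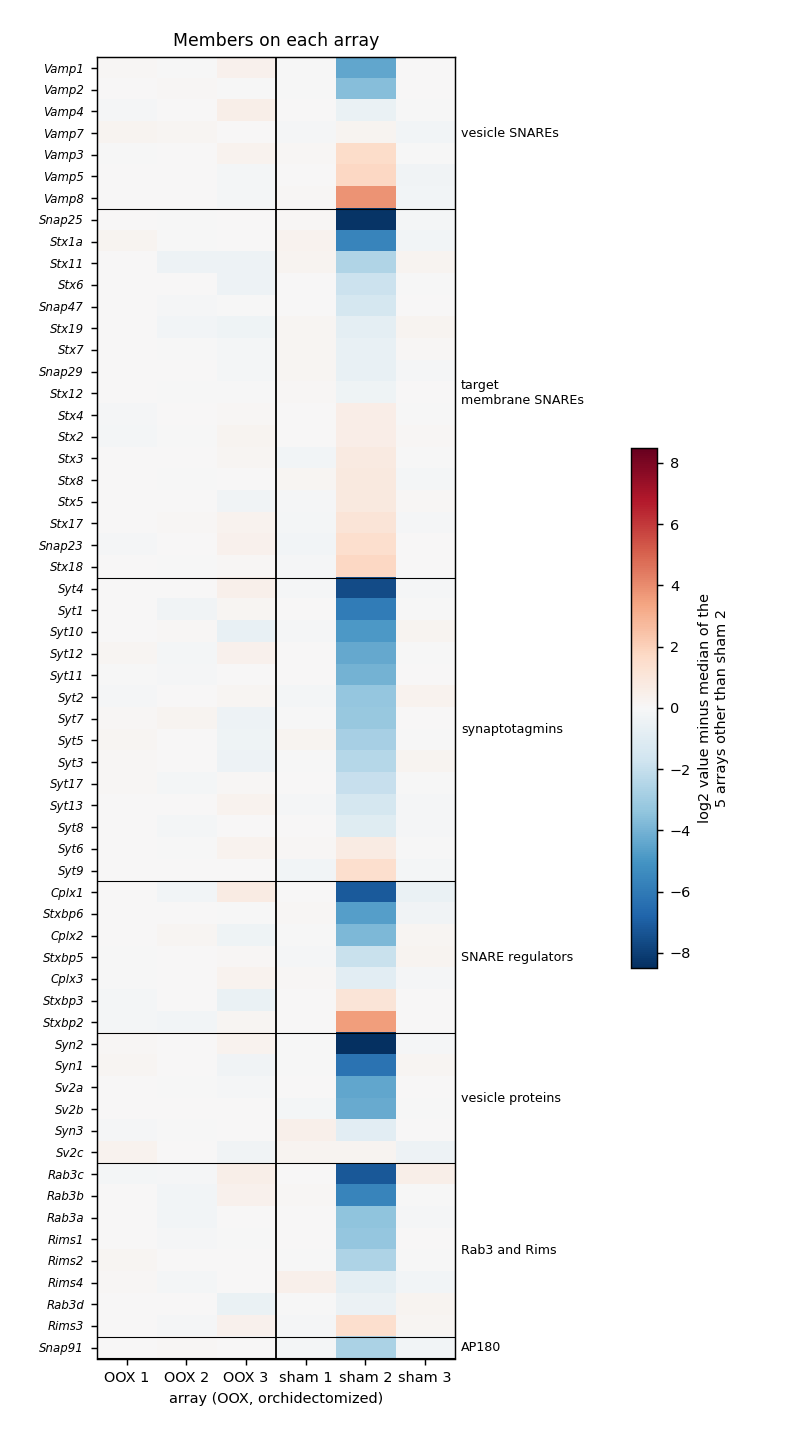
Each row is 1 of 60 tested members, grouped by role, and each column 1 array, orchidectomized (OOX) to the left of sham. Colour gives the log2 value minus the gene's median over the 5 arrays other than sham 2, blue for dimmer and red for brighter. The column of sham 2 runs from -8.44 at Syn2 to 3.82 at Vamp8, and Cplx1, Snap25, Rab3c, Syt10 and Stx11 carry a saturated or near-background value in at least 1 column.

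Within most families some members were dimmer and others brighter on sham 2. All 14 members of a list of the neuronal core (among them Vamp2, Snap25, Stx1a, Syt1, Cplx1, Cplx2, Syn1, Syn2, Sv2a, Sv2b, Rab3a and Rims1) were dimmer there, from -3.31 at Rims1 to -8.44 at Syn2, with a median of -5.03, or -4.41 with values at their bounds. Of 21 widely expressed members, 8 were brighter by more than 1 unit, 10 lay within 1 unit and 3 were dimmer (Stx6, Snap47 and Stx11), with a median of 0.79. Stx11 was not well above background on sham 2, and at its bound it stood at -0.75, within 1 unit. Both lists were drawn up with the behaviour of this array known and are no independent support for a difference between them.

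Among the vesicle SNAREs, Vamp2, the synaptobrevin of fast transmitter release, had 3.64, 3.69 and 3.59 in orchidectomized animals and 3.60, 0.02 and 3.62 in sham 1 to 3. The 5 other arrays thus spanned about 0.1 unit, inside which the groups overlapped, while sham 2 stood at -3.60 against their median. Vamp1, the other neuronal synaptobrevin, stood at -4.41 on sham 2 by its brighter probe and at -2.99 by its second probe. Vamp8, a SNARE of endosomes and of secretion in epithelia, showed the opposite pattern, with 0.08, 0.08 and -0.09 in orchidectomized animals and 0.18, 3.90 and -0.18 in sham 1 to 3. Sham 2 was its single high array, 3.82 units above the median of the rest. Vamp3, or cellubrevin, had 2.83, 2.88 and 3.19 in orchidectomized animals and 2.97, 4.43 and 2.82 in sham animals. Vamp5, first described in muscle, had -1.12, -1.16 and -1.30 in orchidectomized animals and -1.12, 0.60 and -1.50 in sham animals. Both were brightest on sham 2, and without it their groups overlapped. Vamp4, of the trans-Golgi network, and Vamp7, of late endosomes and lysosomes, stayed within 1 unit on sham 2, at -0.55 and 0.21.

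Among the target membrane SNAREs, Snap25, the partner of synaptobrevin and syntaxin 1 at the synapse, had 4.72, 4.71 and 4.72 in orchidectomized animals and 4.82, -3.58 and 4.58 in sham animals. Its probe was saturated on sham 3, and the other 5 arrays were at least 314-fold brighter than sham 2. The second Snap25 probe stood at -8.46 on that array against the median of the others. The widely expressed homologue Snap23 had -0.56, -0.38 and -0.08 in orchidectomized animals and -0.69, 0.97 and -0.45 in sham animals, so that sham 2 was its brightest array where it was the dimmest for Snap25.

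Stx1a, a syntaxin of the presynaptic membrane, had 4.18, 3.90 and 3.93 in orchidectomized animals and 4.21, -1.71 and 3.70 in sham animals. Sham 2 was its single low array. Stx4, a syntaxin of the plasma membrane in many cell types, had 0.27, 0.38 and 0.47 in orchidectomized animals and 0.37, 0.91 and 0.32 in sham animals. Sham 2 was its brightest array. Vamp5 and Vamp8 are neighbours on the chromosome, and both were brighter there, by 1.76 and 3.82. Stx7, of late endosomes, had 2.04, 2.02 and 1.85 in orchidectomized animals and 2.18, 1.39 and 2.13 in sham animals. Stx18, of the endoplasmic reticulum, had -2.02, -2.06 and -1.90 in orchidectomized animals and -2.11, -0.23 and -1.97 in sham animals. Sham 2 was thus the dimmest array for Stx7 and the brightest for Stx18. Over the 18 target membrane SNAREs, 6 were dimmer by more than 1 unit on sham 2, 3 brighter and 9 within that range. Stx11 counts among the dimmer ones only by a value not well above background.

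**Figure D2:**
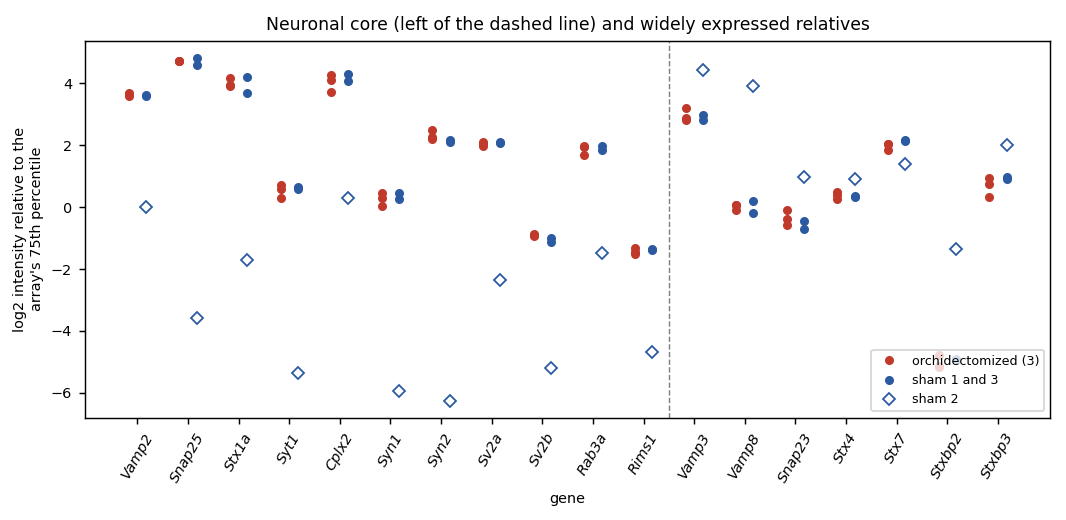
Log2 intensity, set against each array's 75th percentile, for 11 genes of the neuronal core (Cplx1, whose probe was saturated, is left out) and 7 widely expressed relatives. Filled points are the 3 orchidectomized arrays (red, left) and sham 1 and 3 (blue, right), and the open diamond is sham 2, which lies below the other arrays in all 11 genes to the left of the dashed line and above them in 6 of the 7 to its right, Stx7 being the exception.

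The synaptotagmins were dimmer on sham 2 in 12 of 14 tested members by more than 1 unit, with a median of -3.0. Syt1, the calcium sensor of fast release in forebrain neurons, had 0.58, 0.29 and 0.73 in orchidectomized animals and 0.63, -5.37 and 0.57 in sham animals. Syt4, a member whose first C2 domain does not bind calcium, had 2.52, 2.56 and 2.96 in orchidectomized animals and 2.39, -5.09 and 2.44 in sham animals. Sham 2 was the only low array for both, and the orchidectomized values of Syt4 lay above all 3 sham values. Its second probe stood at -8.05 on sham 2 against the others. Syt2 stood at -3.27, Syt7 at -3.21 and Syt10 at -4.90, the last of these not well above background on sham 2 and at least 17.8-fold brighter elsewhere. Syt9 was the exception in the other direction, 1.42 units brighter on sham 2, and Syt6 stood at 0.70.

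Among the regulators, Stxbp2, or Munc18-2, which serves secretion in epithelial and blood cells, had -5.12, -5.16 and -4.79 in orchidectomized animals and -4.90, -1.36 and -4.95 in sham animals. Stxbp3, a further Munc18 protein, had 0.73, 0.93 and 0.32 in orchidectomized animals and 0.91, 2.01 and 0.97 in sham animals. Sham 2 was the highest array for both. Cplx2, a complexin that clamps and aids fusion, had 4.12, 4.27 and 3.73 in orchidectomized animals and 4.06, 0.30 and 4.29 in sham animals. The brighter Cplx1 probe was saturated on all arrays other than sham 2, where it read -2.07, and those arrays were at least 141-fold brighter. The second Cplx1 probe had 1.45, 1.32 and 2.01 in orchidectomized animals and 1.18, -6.53 and 1.47 in sham animals. Sham 2 was again its single low array.

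Of the vesicle proteins, Syn1, a synapsin that tethers vesicles to the cytoskeleton, had 0.45, 0.30 and 0.03 in orchidectomized animals and 0.27, -5.94 and 0.45 in sham animals. Syn2 had 2.27, 2.19 and 2.48 in orchidectomized animals and 2.18, -6.25 and 2.10 in sham animals. Syn2 stood at -8.44 on sham 2 against the median of the other arrays. Sv2a, a transporter-like vesicle protein and the target of the antiepileptic drug levetiracetam, had 2.09, 2.04 and 1.97 in orchidectomized animals and 2.10, -2.34 and 2.07 in sham animals. Sv2b had -0.92, -0.87 and -0.93 in orchidectomized animals and -1.12, -5.19 and -0.999 in sham animals. The orchidectomized values of Syn2 and Sv2b lay above all sham values, and those of Sv2a overlapped with sham 1 and 3. Syn3 and Sv2c stayed within 1 unit on sham 2, at -0.87 and 0.21.

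In the docking group, Rab3a, the vesicle GTPase that binds the Rims scaffold, had 1.97, 1.69 and 1.94 in orchidectomized animals and 1.98, -1.50 and 1.84 in sham animals. Rab3c had -2.30, -2.26 and -1.63 in orchidectomized animals and -2.16, -9.39 and -1.68 in sham animals, was not well above background on sham 2 and was at least 45.5-fold brighter elsewhere. Rims1, a scaffold of the active zone, had -1.32, -1.51 and -1.44 in orchidectomized animals and -1.34, -4.69 and -1.38 in sham animals. All 3 were low on sham 2 alone. Rab3d, a member known from secretory cells, was within 1 unit at -0.53, and Rims3 was 1.40 units brighter. Snap91, the clathrin adaptor, stood at -2.72.

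**Figure D3:**
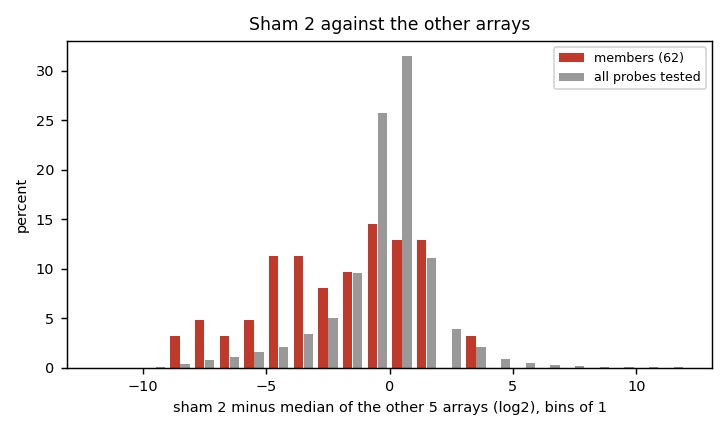
Share of the 62 tested members (red) and of all tested probes (grey) by the log2 value of sham 2 minus the median of the other 5 arrays, in bins of 1 log2 unit. All tested probes centre near 0, with a median of 0.01, and the members extend to the left, 35 of them below -1.

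The comparison of the groups asked whether removal of the testes went with a difference in these genes. Over all 6 arrays, 44 of the 62 members were higher and 18 lower in orchidectomized animals, with a median difference of 0.53, against -0.02 over all probes. None was called by limma at a Benjamini-Hochberg adjusted p under 0.05, where 0 of 24630 probes (0%) were called over the array. The smallest adjusted p among members was 0.775, and 0 members had an unadjusted p under 0.05, against 0.731% of all probes. In 6 members the groups did not overlap (9.68%, against 8% of all probes). All 6 were higher in orchidectomized animals (Syn2, Syt4, Sv2b, Snap91, Rims2 and Syt13), a direction found at 3.26% of all probes, and 0 were lower, against 4.74% of all probes. In all 6 sham 2 lay below the other 5 arrays, as it did in 43 of the 62 members. Such a low sham value cannot undo non-overlap in the higher direction and forbids it in the lower. The shares by direction are therefore no evidence of a group difference. All 14 genes of the neuronal core were higher, by 1.05 to 2.97, and the 21 widely expressed members had a median of -0.16, with 8 higher and 13 lower. Both lists were drawn up with the values of sham 2 known, and sham 2 is among these sham arrays. The split between the lists is therefore no result about the groups. Syn2 averaged 2.31 ± 0.15 in orchidectomized animals and -0.66 ± 4.84 in sham animals (SD, n = 3 each). The difference was 2.97 ± 2.37 (standard error). Stxbp2 averaged -5.02 ± 0.20 in orchidectomized animals and -3.74 ± 2.06 in sham animals (SD, n = 3 each). The difference was -1.29 ± 1.02 (standard error). In both the spread among sham animals exceeded the difference. The 95% interval of the difference reached a median of 1.63 to either side for members, against 0.81 for all probes, and lay within 1 log2 unit of 0 for 12 of 62 members.

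Without sham 2, 3 orchidectomized arrays stood against 2 sham arrays, and the median member difference was -0.01, against -0.02 over all probes, with 30 members higher and 32 lower. Again none was called, as 0 of 25208 probes (0%) were, and the smallest adjusted p among members was 0.988. Before adjustment, the limma p was under 0.05 for 2 of 62 members (Stx11 and Stx19) on the brighter probe of each gene. Over the array it was so for 682 of 25208 probes (2.71%), a similar share. Leaving out Cplx1, saturated in both groups, the differences of 61 members ran from -0.53 to 0.29, and 59 of them were within 0.3 of 0. The 95% interval lay within 1 log2 unit of 0 for 60 members, and it reached a median of 0.40 to either side, against 0.43 for all probes. For these 60 genes a change of more than 2-fold in either direction lay outside the interval. The neuronal core had 6 members higher and 8 lower with a median of -0.03, and the widely expressed members had 10 higher and 11 lower with a median of -0.03.

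The 2 members with an unadjusted p under 0.05 were syntaxins without a transmembrane segment. Stx11, best known from the granules of cytotoxic lymphocytes, had -6.76, -7.20 and -7.18 in orchidectomized animals and -6.52 and -6.50 in sham 1 and 3. The groups differed by -0.53 ± 0.18 (standard error, limma adjusted p = 0.988), and sham 2, not well above background at -9.35, lay below every other array. Stx19 had -2.82, -3.08 and -3.22 in orchidectomized animals and -2.66 and -2.58 in sham 1 and 3. The groups differed by -0.42 ± 0.16 (standard error, limma adjusted p = 0.988). All 3 orchidectomized values lay below both sham values in each, but sham 2, at -3.66 for Stx19, lay lower still in both. With normexp background correction Stx11 had the opposite sign, 0.21, and Stx19 -0.30.

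The groups did not overlap in 13 members without sham 2 (21.0%, against 16.3% of all probes). Of these, 10 were higher in orchidectomized animals (16.1%, against 6.24%) and 3 lower (Stx11, Stx19 and Stx7), against 10% of all probes. The higher ones were the 6 named above with Vamp7, Stx3, Stx17 and Syt9. Groups that do not overlap over 6 arrays cannot overlap once sham 2 is left out, so those 6 are no second support. Vamp7 had 2.35, 2.25 and 2.10 in orchidectomized animals and 2.01 and 1.87 in sham 1 and 3, a difference of 0.29 ± 0.14 (standard error). Sham 2, at 2.31, fell among the orchidectomized values of Vamp7. Stx17, a syntaxin of autophagosomes, had -3.49, -3.37 and -3.16 in orchidectomized animals and -3.64 and -3.59 in sham 1 and 3, a difference of 0.28 ± 0.15 (standard error). Sham 2, at -2.37, lay above all of these, and over 6 arrays Stx17 differed by -0.14. Syt4 differed by 0.26 ± 0.18 and its second probe by 0.37 ± 0.14 (standard errors). Both Syt4 probes thus ran in the same direction. Second probes were not part of the count of members with an unadjusted p under 0.05. Stx7 differed by -0.18 ± 0.13 (standard error). None of these passed after adjustment.

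All 7 vesicle SNAREs were slightly higher in orchidectomized animals without sham 2, by 0.02 to 0.29 with a median of 0.12. The 95% interval of each ran from a negative to a positive value, and the groups overlapped in all but Vamp7. Vamp2 itself averaged 3.64 ± 0.05 in orchidectomized animals (SD, n = 3) and 3.61 ± 0.02 in sham animals (SD, n = 2), a difference of 0.03 with a 95% interval from -0.27 to 0.33. Of the synaptotagmins 6 were higher and 8 lower with a median of -0.02, and Syt1 differed by -0.07 with an interval from -0.49 to 0.35. The target membrane SNAREs had 7 higher and 11 lower with a median of -0.05, and Stx1a differed by 0.05 with an interval from -0.45 to 0.55. The regulators had 3 higher and 5 lower and the Rab3 and Rims genes likewise, with medians of -0.03 and -0.05. The vesicle proteins were split 3 and 3. Syn1 differed by -0.10 with an interval from -0.53 to 0.32. These intervals bound the size of a difference and do not show that the groups were alike.

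**Figure D4:**
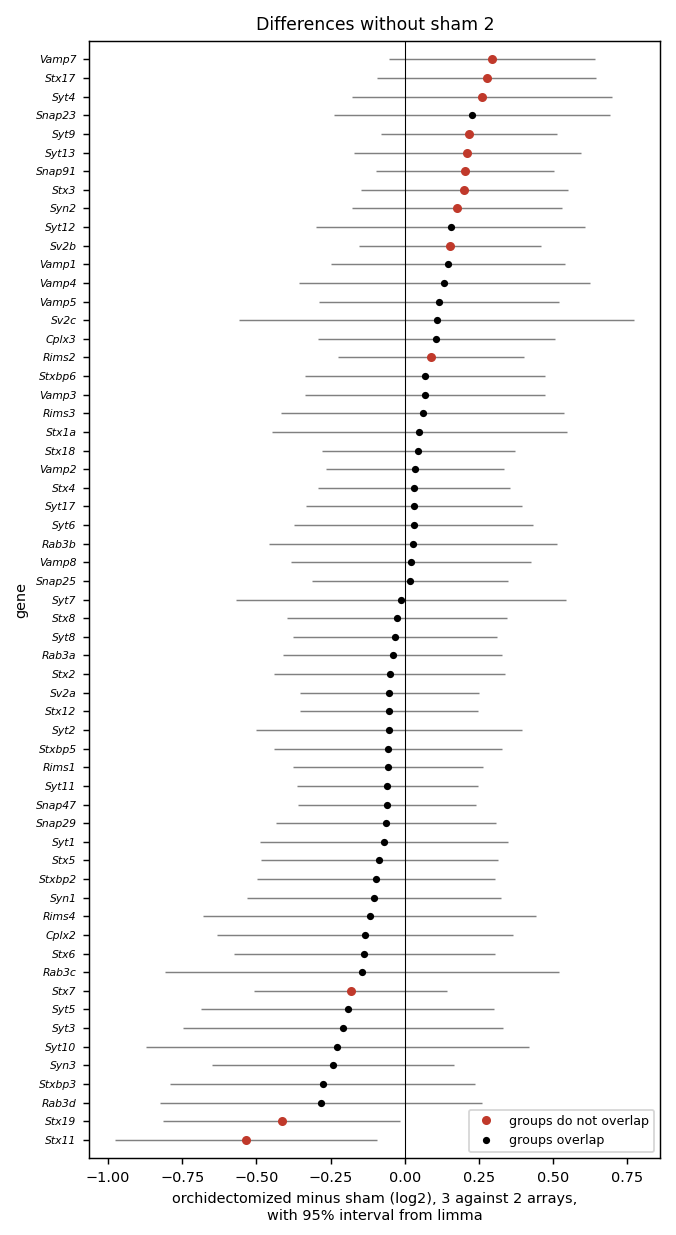
Difference of orchidectomized minus sham in log2 units for 59 members not saturated in both groups, over 3 orchidectomized and 2 sham arrays, with the 95% interval from limma. Red points are members whose groups did not overlap. Points run from -0.53 at Stx11 to 0.29 at Vamp7, and the intervals of Stx11 and Stx19 alone leave out 0 before adjustment.

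Spread between animals of 1 group was set beside the group difference. A gap between single arrays, or a range of 3, tends to be wider than a difference of means, so this is description only. Sham 1 and sham 3 lay further apart than the group means in 37 of 62 members (59.7%, against 64.5% of all probes). The range of the 3 orchidectomized arrays exceeded the group difference in 52 (83.9%), a count for which the share of all probes was not taken. Orchidectomized 3 was the highest of the 5 arrays in 22 members (35.5%, against 34.5% of all probes) and the lowest in 15 (24.2%, against 30.7%). Orchidectomized 1 was the highest in 5 members (8.06%, against 12.4% of all probes) and the lowest in 5 (8.06%, against 11.8%). The choroid plexus markers also moved with the groups: 13 of 13 tested were higher in orchidectomized animals, by a median of 0.63, with 4 at an unadjusted p under 0.05 and 0 called. Their list means were -3.69, -4.09 and -4.55 in orchidectomized animals and -4.37 and -5.10 in sham 1 and 3. The oligodendrocyte markers were lower in 7 of 8, by a median of -0.25, with list means of 1.88, 1.97 and 1.73 in orchidectomized animals and 2.27 and 2.00 in sham 1 and 3. Glutamatergic markers were lower in 10 of 12, by a median of -0.15, while pan-neuronal markers were higher in 6 of 7 (median 0.12) and GABAergic ones were split 4 higher and 5 lower (median -0.02). Astrocyte markers were higher in 7 of 8 (median 0.19) and ependymal markers lower in 4 of 4 (median -0.29), with 0 called in any of these lists. The part of these in the member differences was not tested.

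Orchidectomized 3 and sham 1 shared a slide, and sham 1 alone among the sham arrays was scanned on the day of all 3 orchidectomized arrays. Within that slide the median member difference was 0.02, and within that scan day it was -0.02, against -0.03 to -0.04 over all probes in the same settings. Within the slide, of 1 array against 1, Stx11 differed by -0.66, Stx19 by -0.55, Vamp7 by 0.09 and Stx17 by 0.48. Within the scan day they differed by -0.53, -0.37, 0.23 and 0.30. Non-overlap had already fixed the sign of these against sham 1.

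Genes of the same pathway outside the chosen symbols were read in the same way. In a list of 20 active zone, priming and SNARE disassembly genes, 17 were more than 1 unit dimmer on sham 2, with a median of -4.79. Bsn, the active zone scaffold bassoon, stood at -8.54 there, Unc13a, the priming factor Munc13-1, at -5.54, and Nsf, the ATPase that takes SNARE bundles apart, at -4.59. Of 15 genes of vesicle proteins and transmitter loading 8 were dimmer, with a median of -2.01, and of 17 genes of vesicle retrieval 9 were, with a median of -1.40. Dnm1, the neuronal dynamin that pinches vesicles off, was not well above background on sham 2, while Cltc, the clathrin heavy chain used by all cells, stood at -0.03. In a list of 10 SNAREs of the Golgi apparatus and endoplasmic reticulum 1 was dimmer and 2 brighter, with a median of 0.74. Without sham 2 the medians of the 4 lists were 0.12, -0.06, 0.04 and 0.00, and 0 genes of any of them had an unadjusted p under 0.05 or were called in limma.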

How the data were processed

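Per the file headers, Agilent Feature Extraction 10.5.1.1 read each 1-channel scan and gave a processed signal, an intensity after background subtraction. In the table the authors deposited, values are the log2 processed signal plus 1 constant per array (medians -0.32 to 0.72), whose origin is not given in the sources used here. Spots flagged as outliers and control spots were left out, log2 processed signals of a probe's spots were averaged, and each array's 75th percentile was subtracted. The files carry accessions and no gene symbols, so symbols came from matching accessions without versions to the RefSeq gene table of GRCr8, which named 18004 of 30367 probes. The headers name another build, and the promoter coordinates are from GRCr8. Between 23785 and 26173 probes per array were well above background. Precision is limited by how few arrays there were.

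A probe was tested if it was well above background throughout 1 or both groups. Two-sided tests over the whole array used limma 3.58.1 (lmFit, eBayes; R 4.3.3), and p-values were adjusted by Benjamini-Hochberg. Non-overlap means that every value of 1 group exceeded every value of the other. "At least" folds set the mean of the bright arrays against the higher of the dim probe's value and the lowest signal well above background on that array. The fit was tested on simulated data. Values on every array are given for the neuronal core, for widely expressed relatives, for members with an unadjusted p under 0.05, for the 3 members per direction farthest apart among those without overlap, and for the 5 highest and 5 lowest on sham 2. For 2 members single values are not reported here. The members and lists were chosen with earlier results of these data known. Alternatives were normexp (on median spot signals, where mean signals had been planned), quantile and median scaling, the deposited values, other brightness filters, another variance model, all probes of a gene, slide, scan day or replicate number as a block, and leaving out each array.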

Additional observations from a re-analysis of the deposited data

How the results depend on the processing

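No member was called in any setting of either comparison. Over 6 arrays the count of called probes was 1 with quantile normalization and 6 within scan day 1. Without sham 2 it was 2 with quantile normalization, 1 with median scaling, 18 with the deposited values (1 higher) and 10 both with scan day as a block and within scan day 1. Leaving out a further array gave 0 to 251, with 22 without sham 1 and 251 without sham 3, fits that take the lone sham array to vary as the orchidectomized ones do and that test probes bright on it alone. The causes were not tested. The median member difference over 6 arrays was 0.53 with the replicate block, 0.45 to 0.59 under other scalings, filters and values, 0.02 when slide was a block and -0.02 when scan day was, since sham 2 has no orchidectomized array on its slide or day. Leaving out 1 array gave -0.01 (without sham 2) to 0.90 (without sham 3). Without sham 2 the median ran from -0.02 to 0.04 and was 0.02 with the replicate block. Deviations from the group mean on arrays of the same replicate number correlated at 0.03, -0.02 and -0.02 over 6 arrays. Without sham 2 the correlations were 0.16 and -0.05 for replicates 1 and 3. Over 6 arrays sham 2 weighs on every sham deviation, and without it those of sham 1 and 3 mirror each other. The correlations therefore cannot decide whether replicate numbers paired the arrays. The median of sham 2 against the other 5 was -1.58 with median scaling and -1.44 with normexp. Of the 29 members given on every array, 82 of 519 values over 6 arrays and 71 of 493 without sham 2 had the other sign, and 0 passed the threshold. Normexp moved the median of all probes to 0.08 in both comparisons, and median scaling to -0.10 over 6 arrays. Of the members, 4 were not well above background on sham 2, so their values there are bounds, and for Stx11 the bound is 1.61-fold, so that it need not count among the 35 dimmer members.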
